A study of Mus musculus with 4 samples.

Results

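Genes of the red cell lineage were examined in the RNA of mouse calvarial bone. They are 37 listed symbols for globins and their chaperone, heme synthesis and iron uptake, the red cell membrane, erythroid transcription factors and receptor, and enzymes of the maturing red cell. The genes were taken by name, and 35 of the 37 were analysed among 23946 gene symbols. Of these, 34 matched by symbol and 1, Epb42, by its older symbol Epb4.2, whereas Hbb-b2 and Ahsp are not analysed here.

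Frontal and parietal bones came from C57BL/6J mice at postnatal day 21, either wild type or Twist1+/-, that is, heterozygous in the germline for a Twist1 mutation, from a purchased line. In the embryo, neural crest gives rise to the frontal bones and mesoderm to the parietal bones, and the study asked how loss of 1 Twist1 copy acts on each. The material was whole bone with its pericranium and dura mater, as the study describes its bone tissue. RNA of 12 mice per strain was used, but whether the animals of a group were pooled is not given in the sources used here. With 1 library for each genotype and bone there is no replicate check, and the values below carry neither an SD nor a p-value. Values are FPKM, fragments counted per length of transcript and per depth of the library, and the values of a gene are given in the order wild-type frontal, wild-type parietal, Twist1+/- frontal and labelled Twist1+/- parietal.

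Red cells arise in the marrow from progenitors that respond to erythropoietin through its receptor and switch on a program led by the factors Gata1, Tal1 and Klf1. The maturing erythroblast takes up iron by the transferrin receptor, makes heme in a chain of enzymes that starts with Alas2, and fills itself with globin chains. It also builds a spectrin-based membrane skeleton, clears its mitochondria and expels its nucleus, and the young cell leaves the marrow still rich in globin mRNA. The flat bones of the skull contain marrow, so transcripts of all these stages can be present in RNA from whole bone.

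Twist1 was listed at 59.02, 52.5, 30.4 and 50.7 FPKM. It was 1.94-fold lower in the Twist1+/- frontal than in the wild-type frontal library, but nearly the same in both parietal libraries, so every direction given for the library labelled Twist1+/- parietal rests on its label. The bone markers Bglap (5220 to 7982 FPKM), Sp7 (56.9 to 108) and Ibsp (278 to 869) were present in all 4 libraries. The collagen genes Col1a1 and Col1a2 were at 0 in every library but wild-type parietal, so a value of 0 is given here only as a listing.

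The globin genes lie in clusters of near-identical copies, which sets what a read of 75 bases can tell apart. In the GENCODE annotation of mm9, Hba-a1 lies at chr11:32183511-32184465 and Hba-a2 at chr11:32196489-32197301, both on the plus strand with 3 exons. Their coding sequences of 429 bases differ at 1 base, and 306 of the 355 windows of 75 bases (86.2%) were the same in both. Hbb-b1 (chr7:110975048-110976610) and Hbb-b2 (chr7:110961038-110962510), on the minus strand with 3 exons each, differ at 1 of 444 coding bases and share 342 of 370 windows (92.4%). Over the whole transcripts fewer windows were shared with the copy, 62.2% for Hba-a1, 81.0% for Hba-a2, 50.6% for Hbb-b1 and 56.6% for Hbb-b2. The windows below, 1 for each gene, run from coding base 307 to 381 in the alpha genes and from 343 to 417 in the beta genes. They are shown because each ends at the coding base, in capitals, at which the copies differ.
Hba-a1: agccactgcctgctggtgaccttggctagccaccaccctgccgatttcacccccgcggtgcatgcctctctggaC
Hba-a2: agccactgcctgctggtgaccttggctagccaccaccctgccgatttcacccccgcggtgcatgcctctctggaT
Hbb-b1: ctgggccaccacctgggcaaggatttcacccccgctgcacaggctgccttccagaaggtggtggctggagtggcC
Hbb-b2: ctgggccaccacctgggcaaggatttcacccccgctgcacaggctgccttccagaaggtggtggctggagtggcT
C57BL/6 mice carry the adult beta globin pair also known as Hbb-bs and Hbb-bt, and how the symbols Hbb-b1, Hbb-bs and Hbb-bt of the files fall on these loci is not given in the sources used here. How the counting divided reads between the copies is not given either, so the level of a single adult globin gene is uncertain, and sums are given beside it.

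Adult globins were the most abundant erythroid transcripts in 3 libraries and were listed at 0 in the wild-type frontal library. Hba-a1, an adult alpha chain, was listed at 0, 12297, 11198 and 17813 FPKM. Hbb-b1, an adult beta chain, had 0, 24924, 17820 and 27525 FPKM, and Hbb-bt, another adult beta chain, 0, 5684, 4434 and 6764. Hbb-bs was listed far lower, at 0, 60.2, 20.4 and 108 FPKM. Of the 3 libraries with values, the Twist1+/- frontal was the lowest and the labelled Twist1+/- parietal the highest for each of these 4 genes. No fold against the wild-type frontal library is given, since a listing at 0 yields none. The other 29 erythroid genes were above 0 in that library, and 27 of them reached their highest value there.

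Summed alpha and beta globin came to 42965, 33472 and 52211 FPKM in the wild-type parietal, Twist1+/- frontal and labelled Twist1+/- parietal libraries. These sums were 6.13%, 6.44% and 8.02% of all FPKM in the library. The ratio of alpha to beta chain transcripts was 0.401 in the wild-type parietal library and 0.503 and 0.518 in the Twist1+/- libraries. Hbb-bt made up 18.5%, 19.9% and 19.7% of the beta transcripts, and Hbb-bs 0.196%, 0.0916% and 0.315%. Between the parietal libraries the globins were 1.45-fold (Hba-a1), 1.10-fold (Hbb-b1), 1.19-fold (Hbb-bt) and 1.80-fold (Hbb-bs) higher in the one labelled Twist1+/-. With the median ratio of genes of like GC content subtracted, the log2 ratio of Hba-a1 was 0.08 instead of 0.53. That of Hbb-b1 was 0.08 instead of 0.14, which left both genes nearly alike. The alpha to beta ratios above carry no such correction. Hba-a2 did not exceed 0.0621 FPKM, a value that cannot be separated from the counting of its copy Hba-a1. Hbb-bh1, an embryonic beta-like chain, was listed at 0.672, 0.0968, 0.0723 and 0 FPKM, under the floor of 1 FPKM used for ratios.

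The 29 genes other than globins were measured at 1 FPKM or more in every library, from 4.72 FPKM (Ank1, wild-type parietal) to 576 (Alas2, wild-type frontal). Their median was 70.2 FPKM in the wild-type frontal library, 16.2 in the wild-type parietal, 42.3 in the Twist1+/- frontal and 40.8 in the labelled Twist1+/- parietal library. The wild-type libraries were thus the extremes, and the Twist1+/- libraries lay between them and close together. For all 29 genes the 2 Twist1+/- libraries were within 1.5-fold of each other, with 1.35-fold as the widest gap.

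**Figure D1:**
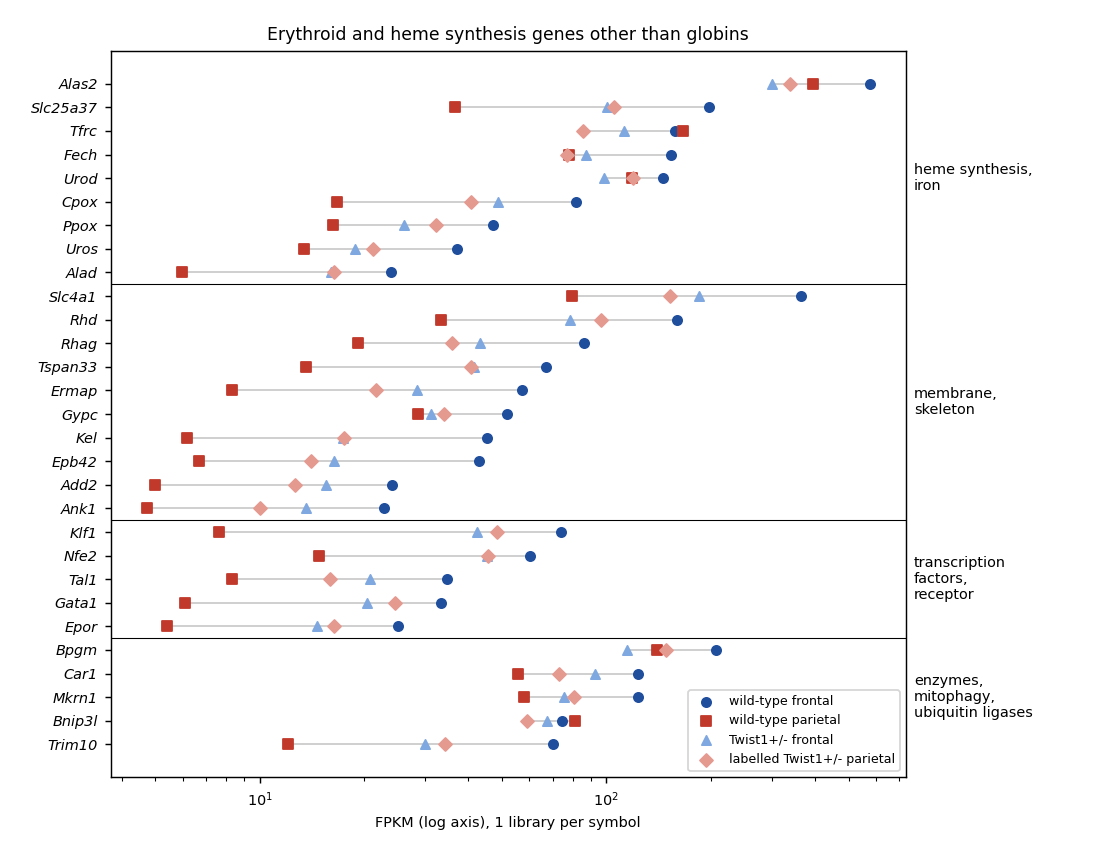
FPKM (log axis) of the 29 erythroid and heme genes other than globins, 1 symbol per library and 1 line per gene, grouped by role. Wild-type frontal is the rightmost symbol for 27 genes and wild-type parietal the leftmost for 23, with both Twist1+/- libraries near each other.

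Of the enzymes that build heme, Alas2, Alad, Uros, Urod, Cpox, Ppox and Fech are among the genes here. Alas2 (chrX:146981918-147005181, 11 exons), the erythroid enzyme of the first step, was listed at 576, 395, 299.8 and 338 FPKM. It was the highest of the non-globin genes in every library, and its lowest value was in the Twist1+/- frontal and not in the wild-type parietal library. Alad, which joins molecules of the first product, was at 23.9, 5.95, 16.03 and 16.3 FPKM. Uros, which closes the ring, was at 37.1, 13.4, 18.9 and 21.2 FPKM. In both genes the wild-type frontal library was the highest and the wild-type parietal the lowest.

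Urod, the next enzyme, varied little, with 146, 118, 98.5 and 119 FPKM. The mitochondrial enzymes that follow, Cpox and Ppox, were at 81.8, 16.8, 48.8 and 40.8 FPKM and at 47.2, 16.2, 26.1 and 32.3 FPKM. Fech, which inserts the iron, was at 153, 77.9, 87.2 and 77.1 FPKM, with 3 libraries close together and the wild-type frontal above them. Within the pathway, Cpox thus showed a 4.88-fold gap between the wild-type bones and Urod a gap of 1.24-fold.

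Iron supply was represented by the importer of the mitochondrion and by the transferrin receptor. Slc25a37 (mitoferrin), the importer, was at 198, 36.6, 100.4 and 105 FPKM, the widest range among the heme and iron genes at 5.40-fold. Tfrc, the receptor that takes up transferrin-bound iron, was at 157, 166, 112 and 85.8 FPKM. Tfrc is used by all dividing cells, and it was here highest in the wild-type parietal library and lowest in the labelled Twist1+/- parietal library.

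Membrane and skeleton genes differed more evenly. Slc4a1 (band 3), the anion exchanger and most abundant of them, was at 365, 79.6, 185 and 152 FPKM. Ank1, the ankyrin that ties band 3 to spectrin, was at 22.8, 4.72, 13.6 and 10.1 FPKM, and Epb42, which binds both, at 42.8, 6.68, 16.4 and 14.1. Add2, the beta adducin of the spectrin-actin junction, was at 24.05, 4.99, 15.6 and 12.7 FPKM. In all 4 the order was wild-type frontal, Twist1+/- frontal, labelled Twist1+/- parietal and wild-type parietal, from high to low.

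The Rh proteins form a complex in the same membrane. Rhag was at 86.4, 19.2, 43.3 and 36.0 FPKM and Rhd at 159, 33.3, 78.4 and 96.6. Kel, the Kell blood group peptidase, was at 45.4, 6.16, 17.4 and 17.5 FPKM, and Ermap, a membrane adhesion protein that carries the Scianna blood group, at 57.0, 8.31, 28.4 and 21.7. Tspan33, a tetraspanin of erythroid progenitors, was at 67.1, 13.6, 41.4 and 40.8 FPKM. Gypc, a glycophorin that anchors the skeleton and is also made outside the lineage, had the narrowest range of the group, with 51.8, 28.7, 31.2 and 34.0 FPKM.

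Among the regulators, Klf1 (chr8:87425827-87429194, 3 exons), the factor that activates adult beta globin, was at 74.1, 7.64, 42.3 and 48.3 FPKM. Gata1 (chrX:7536386-7555197, 6 exons), the leading factor of the lineage, was at 33.4, 6.10, 20.4 and 24.6 FPKM, and its partner Tal1 at 34.7, 8.34, 20.8 and 15.9. All were lowest in the wild-type parietal library. Nfe2, an erythroid and megakaryocytic leucine zipper factor, was at 60.2, 14.8, 45.2 and 45.7 FPKM. Epor, the erythropoietin receptor, was at 25.1, 5.39, 14.6 and 16.4 FPKM. The gap of Klf1 between the wild-type bones, 9.70-fold, was the widest of the 29 genes.

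Among the enzymes and genes of late maturation, Bpgm, which makes the bisphosphoglycerate that lowers oxygen affinity, was at 207, 139.6, 115 and 149 FPKM. Car1, an erythroid carbonic anhydrase, was at 124, 55.8, 92.6 and 73.0 FPKM. Bnip3l (Nix), the receptor for removal of mitochondria, was at 74.6, 81.3, 67.2 and 59.1 FPKM and hardly varied. The ubiquitin ligases Trim10 and Mkrn1 were at 70.2, 12.0, 30.1 and 34.3 FPKM and at 123, 57.7, 75.5 and 80.7 FPKM. Trim10 was 5.83-fold lower in wild-type parietal than in wild-type frontal bone, whereas the other genes of this group differed by 2.22-fold (Car1) or less.

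In the comparison of the wild-type bones, erythroid genes were lower in the parietal library. A ratio was formed for genes above 0 in both libraries and at 1 FPKM or more in the higher, which held for 14120 genes and for 29 of the 35, the 4 adult globins at 0 and the 2 globins under the floor being left out. Of the 29, 27 were lower in the parietal library (50.5% of all genes tested). At the 3-fold threshold of the study, 18 of the 29 were lower and 0 higher, where 8.93% of all genes were lower and 3.77% higher. The study also set a limit on the p-value, which was not applied here. The median ratio of the 29 was -2.17 on the log2 scale, a 4.49-fold lower level, against -0.01 for all genes tested.

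By role, all 5 transcription factors and receptor, 9 of 10 membrane genes (not Gypc), 3 of 9 heme and iron genes (Slc25a37, Cpox and Alad) and 1 of 5 enzymes (Trim10) were more than 3-fold lower. The log2 ratios were -3.28 for Klf1, -2.88 for Kel, -2.78 for Ermap and -2.68 for Epb42, the 4 lowest. Nearest to the threshold were Alad (-2.01, 4.02-fold) among the genes past it and Ppox (-1.54, 2.90-fold) among those short of it. Tfrc (0.08) and Bnip3l (0.13) were the exceptions in sign, and both became negative when the libraries were scaled to the same Gapdh value (-0.36 and -0.32) or to the same summed FPKM without globins, Col1a1 and Col1a2 (-0.30 and -0.26). Within heme synthesis the ratios ran from -2.29 (Cpox) to -0.30 (Urod), with Alas2 at -0.54. Scaling to Gapdh lowers all log2 ratios of this comparison by 0.44, since Gapdh was listed at 158 and 215 FPKM, and with it 21 of the 29 were past 3-fold.

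In the frontal bone, all 29 genes were lower in the Twist1+/- library, from 1.11-fold (Bnip3l) to 2.61-fold (Kel). The share of all 14259 genes tested that were lower was 55.4%. None of the 29 passed 3-fold in either direction, where 2.86% of all genes were higher and 0.477% lower past it. At 2-fold, 5 of the 29 were lower against 1.96% of all genes. These were Kel and Epb42, both 2.61-fold, Trim10 (2.33-fold), Rhd (2.03-fold) and Ermap (2.01-fold). The median log2 ratio was -0.78, or 1.71-fold lower, against -0.04 for all genes. The role groups had like medians, -0.81 for heme and iron genes, -0.99 for membrane genes, -0.74 for the factors and receptor and -0.70 for the enzymes.

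**Figure D2:**
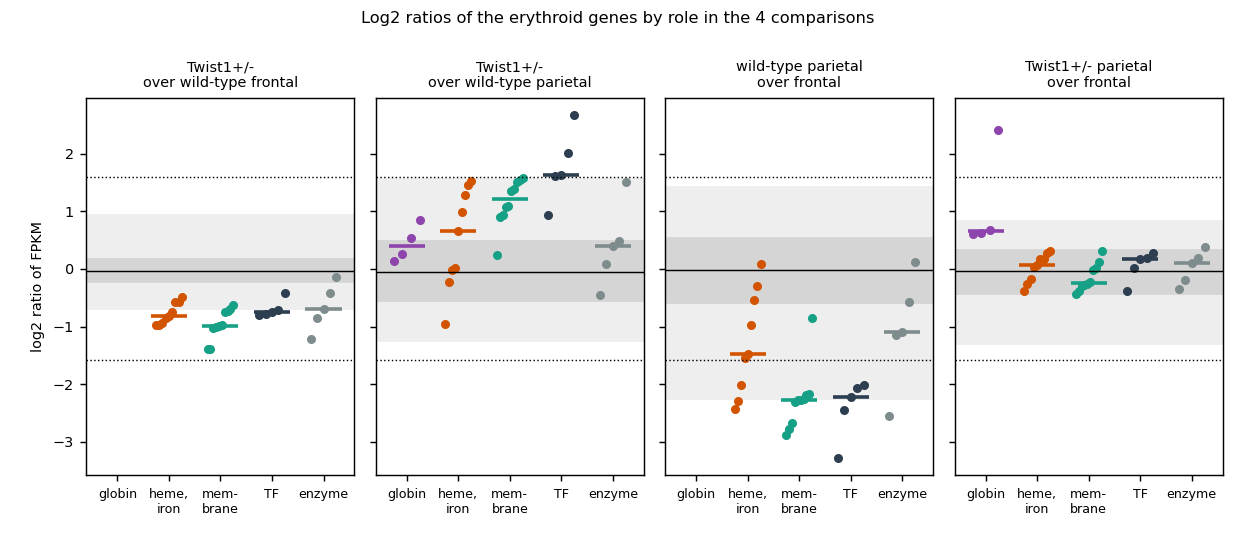
Log2 ratio of FPKM (y axis) of each erythroid gene by role in the 4 comparisons, 1 point per gene, with the coloured bar as the median of the role, the dotted lines at 3-fold, and grey bands from percentile 25 to 75 and from percentile 5 to 95 of all genes tested. All points are below 0 in the first panel, and those of the transcription factors and receptor lie at or above 0.93 in the second and at or below -2.02 in the third.

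Between the parietal libraries the direction was the opposite. Of 33 genes with a ratio, the 29 above and 4 adult globins, 29 were higher in the library labelled Twist1+/- (46.9% of all 13800 genes tested). Past 3-fold, 4 of 33 were higher, against 4.88% of all genes, and 0 were lower, against 2.55%. The 4 were regulators, namely Klf1 (6.33-fold), Gata1 (4.03-fold), Nfe2 (3.08-fold) and Epor (3.04-fold). Tspan33, at 2.996-fold, was just outside. With 1 FPKM added to each value Nfe2 and Epor were no longer past the threshold, and after subtraction of the trend with GC content Epor was not. With that correction the log2 ratio of Klf1 was 1.96 instead of 2.66, that of Gata1 1.77 instead of 2.01, that of Epor 1.03 instead of 1.61, and that of Nfe2 stayed at 1.63 against 1.62.

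Past 2-fold, 15 of 33 were higher, against 10.5% of all genes. Beside the 4 regulators these were the membrane genes Tspan33, Rhd, Kel, Ermap, Add2, Ank1 and Epb42, the heme and iron genes Slc25a37, Alad and Cpox, and Trim10. The median log2 ratio was 0.94 over the 33 and 1.08 without the globins, against -0.06 for all genes. By role the medians were 1.62 for the factors and receptor, 1.22 for membrane genes, 0.66 for heme and iron genes, and 0.39 for both the enzymes and the globins. The 4 genes that were lower were Tfrc (-0.95), Bnip3l (-0.46), Alas2 (-0.22) and Fech (-0.01). Tfrc and Bnip3l were lower with every scaling tried, but after subtraction of the GC trend Tfrc was at -0.36 and Bnip3l at 0.14. Alas2 became 0.17 with the same Gapdh value, and Fech became positive with each scaling and trend correction.

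The 2 genotype comparisons thus pointed in opposite directions for most of these genes. Lower in Twist1+/- frontal and higher in labelled Twist1+/- parietal than in wild type were 25 of 29, all but Alas2, Fech, Tfrc and Bnip3l, where 24.7% of 14542 genes above 0 in all libraries showed that pattern. Urod belongs to the 25 by a log2 ratio of 0.01 in the parietal bone, which became -0.19 after subtraction of the GC trend. Each library enters 2 of the comparisons, so they are not independent of each other. Wild-type frontal was the highest library for 27 of 29 genes (27% of all genes), the exceptions being Tfrc and Bnip3l. Wild-type parietal was the lowest for 23 (35% of all genes), the exceptions being Alas2, Urod, Fech, Tfrc, Bpgm and Bnip3l. For the same 23 both Twist1+/- libraries lay between the wild-type libraries (26.8% of all genes).

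**Figure D3:**
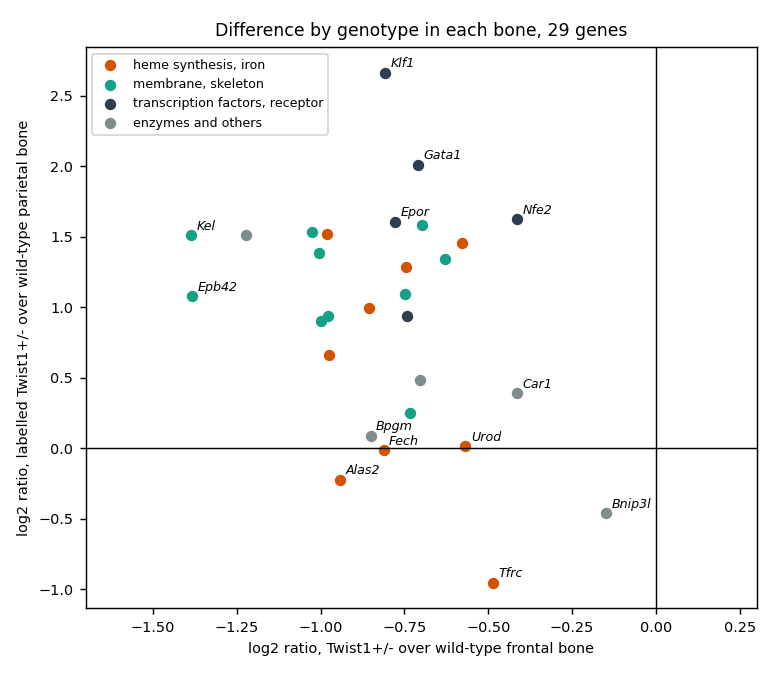
Log2 ratio of Twist1+/- over wild-type frontal bone (x axis) and of labelled Twist1+/- over wild-type parietal bone (y axis) for the 29 genes other than globins, 1 point per gene, coloured by role. All points are left of 0, and 25 lie above 0, with Klf1 (2.66) and Gata1 (2.01) highest and Tfrc (-0.95) lowest.

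Between the Twist1+/- bones the erythroid genes were nearly level. The median log2 ratio of parietal over frontal was 0.07 over 33 genes, 1.05-fold, against -0.03 for all 14236 genes tested. Past 3-fold, 1 of 33 was higher (0.667% of all genes) and 0 lower (2.96%). That gene was Hbb-bs, with a log2 ratio of 2.41. Hbb-bs and Hbb-bt have no entry in the annotation used for GC content and length, so they have no ratio corrected for either. The other adult globins had ratios of 0.61 to 0.67. Among the other genes the lowest was Ank1 (-0.43) and the highest Bpgm (0.37), and the sign of 19 of the ratios changed with at least 1 of the scalings or trend corrections tried. Across 31 genes with a value, the ratio had a Spearman correlation of -0.725 with transcript length, and across all genes it was -0.429. This correlation is across genes of the same 2 libraries and is given as a description.

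Because FPKM is per transcript length, levels of different genes can be set beside each other within a library, which is free of the scaling between libraries. Alas2 stood 7.77 times above Klf1 in the wild-type frontal library, and 7.08 and 7.0 times in the Twist1+/- frontal and labelled Twist1+/- parietal libraries. In the wild-type parietal library it stood 51.7 times above Klf1. The same library was apart for Bpgm over Klf1 (2.79, 18.3, 2.71 and 3.07), for Tfrc over Klf1 (2.12, 21.8, 2.65 and 1.78) and for Alas2 over Gata1 (17.2, 64.8, 14.7 and 13.8). Against a membrane gene the gap was narrower, with Alas2 over Slc4a1 at 1.58, 4.97, 1.62 and 2.22. Klf1 had the widest gap between the wild-type bones, while Alas2, Bpgm and Tfrc were not lowest in the wild-type parietal library. The ratios thus restate the values of these genes and are not a separate result. These ratios are not free of the GC trend, since the transcripts of Klf1 (61.1% GC), Alas2 (53.3%), Bpgm (49.7%) and Tfrc (39.8%) differ. With that trend subtracted, the log2 ratio between the parietal libraries was 1.96 instead of 2.66 for Klf1 and -0.36 instead of -0.95 for Tfrc. It was -0.35 instead of -0.22 for Alas2 and 0.28 instead of 0.09 for Bpgm.

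**Figure D4:**
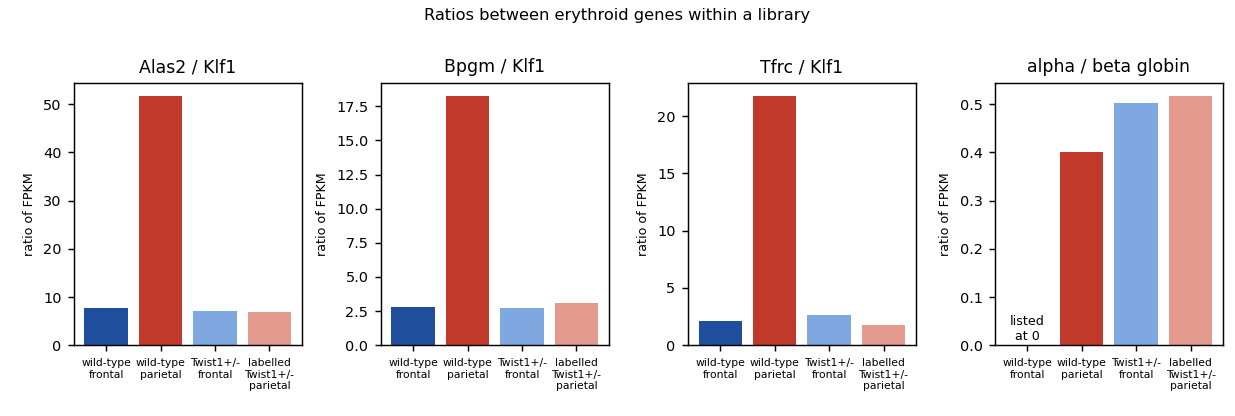
Ratio of FPKM (y axis, from 0) between pairs of erythroid genes and between summed alpha and beta globin within each library, 1 bar per library with no error bar. For the pairs with Klf1 the wild-type parietal bar is the tallest and the other 3 are close to each other, and the alpha to beta ratio is 0.401 there and 0.503 and 0.518 in the Twist1+/- libraries. The bars restate the FPKM of the single genes and are not corrected for GC content.

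The ratio of globin to Alas2 varied less than that of globin to Klf1. Summed globin was 109, 112 and 154 times Alas2 in the wild-type parietal, Twist1+/- frontal and labelled Twist1+/- parietal libraries, and 5624, 790.4 and 1080 times Klf1. The 29 other genes together came to 3167 FPKM in the wild-type frontal library, 1441 in the wild-type parietal, 1802 in the Twist1+/- frontal and 1819 in the labelled Twist1+/- parietal. The wild-type parietal library thus held the lowest levels of the regulators and membrane genes beside globin levels above those of the Twist1+/- frontal library. In bulk tissue, fewer erythroid cells and less of these transcripts per cell cannot be told apart.

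Promoter sequence is shown for 4 genes whose levels set the contrast, namely Klf1 with the widest gap, Alas2 with a narrow one, and an alpha and a beta globin. The sequences are the 150 bases before the transcription start in RefSeq (GRCm38.p6, a later build than mm9, on which the reads were placed). Klf1 is at chr8:84901832-84901981 (plus strand), Alas2 at chrX:150547267-150547416 (plus), Hba-a1 at chr11:32283522-32283671 (plus) and Hbb-bt at chr7:103813924-103814073 (minus). Capitals mark a GATA site (the letters GATAA or GATAG, preceded by A or T), the sequence bound by Gata1, or a CACCC box, the core of the sequence bound by Klf1, read on both strands.
Klf1: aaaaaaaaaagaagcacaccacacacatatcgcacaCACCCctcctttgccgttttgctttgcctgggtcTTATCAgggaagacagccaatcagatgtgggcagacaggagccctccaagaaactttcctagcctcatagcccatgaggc
Alas2: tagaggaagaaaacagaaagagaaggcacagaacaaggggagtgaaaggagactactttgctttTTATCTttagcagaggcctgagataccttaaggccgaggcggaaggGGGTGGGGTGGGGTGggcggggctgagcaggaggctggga
Hba-a1: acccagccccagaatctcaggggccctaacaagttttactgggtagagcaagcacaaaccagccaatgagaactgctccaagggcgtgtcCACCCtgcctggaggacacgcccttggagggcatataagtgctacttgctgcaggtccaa
Hbb-bt: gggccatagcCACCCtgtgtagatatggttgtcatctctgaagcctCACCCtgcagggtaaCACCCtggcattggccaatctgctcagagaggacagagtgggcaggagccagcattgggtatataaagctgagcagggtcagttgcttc
In these windows Klf1 has 1 GATA site and 1 CACCC box, Alas2 1 GATA site and 3 CACCC boxes, Hba-a1 1 CACCC box and Hbb-bt 3.

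A promoter from 250 bases before to 50 bases after the start was found for 25 of the 37 symbols, the others being Hbb-b1, Hbb-b2, Hbb-bh1, Ahsp, Fech, Gypc, Slc4a1, Ank1, Slc25a37, Nfe2, Car1 and Bnip3l. A GATA site was present in 15 of the 25, and in 29.8% of all 32851 promoters. A CACCC box was present in 18 of 25, against 57.5% of all, and both motifs in 14 of 25, against 14.9%. The 14 were Hba-a1, Hba-a2, Hbb-bs, Alas2, Cpox, Rhag, Rhd, Kel, Add2, Ermap, Klf1, Tal1, Epor and Trim10. An E-box (CANNTG), the motif bound by Tal1 and by Twist1, was present in 18 of 25 (72%), against 72.3% of all promoters. The motifs were counted separately and may share bases where they adjoin, and a match is a description of the letters and not of binding.

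Other erythroid genes, listed for comparison and not among those above, were measured beside them. Of 31 such genes, 13 of the 28 with a ratio were more than 3-fold lower in wild-type parietal than in wild-type frontal bone (8.93% of all genes tested), with a median log2 ratio of -1.54. They included Hemgn, a nuclear factor of erythroblasts (98.4, 15.0, 42.0 and 32.3 FPKM), and Dmtn, an actin-bundling protein of the membrane skeleton (33.2, 4.52, 20.3 and 18.3). Ypel4 was at 29.7, 4.67, 12.5 and 8.46 FPKM. In the parietal bone 4 of 28 were past 3-fold higher in the library labelled Twist1+/- (4.88% of all genes tested). These were Dmtn, the Gata1 cofactor Zfpm1 (32.8, 6.83, 22.8 and 24.9 FPKM), the globin repressor Bcl11a (11.8, 2.10, 11.5 and 7.47) and the theta globin Hbq1a (2.89, 1.013, 1.80 and 4.05). In the frontal bone 26 of 27 were lower in the Twist1+/- library (55.4% of all genes tested), and the median was -0.68. None was past 3-fold, where 2.86% of all genes were higher and 0.477% lower.

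General heme and iron genes differed less. Of 27, 1 was more than 3-fold lower in wild-type parietal than wild-type frontal bone, against 8.93% of all genes tested. It was Abcb10, a mitochondrial transporter of erythroid cells (51.9, 12.7, 25.99 and 22.8 FPKM). Their median log2 ratios were -0.40 between the wild-type bones, 0.28 between the parietal libraries and -0.28 between the frontal libraries. None was past 3-fold in either genotype comparison. Of all genes, 2.86% were higher and 0.477% lower past it between the frontal libraries, and 4.88% and 2.55% between the parietal libraries.

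Markers of other cells in the bone moved as well. Of all genes tested, 50.5% were lower in wild-type parietal than in wild-type frontal bone, 8.93% past 3-fold. In the frontal bone 55.4% were lower in the Twist1+/- library. In the parietal bone 46.9% were higher in the library labelled Twist1+/-, 4.88% past 3-fold. Neutrophil markers summed to 15827, 7766, 17708 and 10027 FPKM, and 10 of 10 were lower in wild-type parietal than in wild-type frontal bone (median log2 ratio -1.22), 4 of them past 3-fold. In the frontal bone 10 of 10 were slightly higher in the Twist1+/- library (0.16), where the erythroid genes were lower. In the parietal bone 10 of 10 were higher in the library labelled Twist1+/- (0.58), 2 of them past 3-fold, in the direction of most erythroid genes. B lineage markers summed to 216, 124, 209 and 187 FPKM, with medians of -1.61 between the wild-type bones, 0.94 between the parietal libraries and -0.04 between the frontal libraries. Megakaryocyte markers, which share Gata1 and Nfe2 with the red cell, summed to 457, 527, 436 and 325 FPKM with medians of -0.71, -0.0011 and -0.03 in the same comparisons. Markers of the macrophages of erythroblastic islands summed to 175, 108, 132 and 107 FPKM, and 6 of 6 were lower in Twist1+/- than in wild-type frontal bone (-0.51). Between the parietal libraries 3 of 5 with a ratio were higher and 2 lower in the one labelled Twist1+/- (0.15). Between the wild-type bones 4 of 6 were lower and 2 higher in parietal (-0.96).

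Proliferation genes summed to 311, 169, 202 and 165 FPKM. In wild-type parietal bone 6 of 6 were lower than in frontal bone (median -0.86, 50.5% of all genes). In Twist1+/- frontal bone 6 of 6 were lower than in wild type (-0.56, 55.4% of all genes). Between the parietal libraries 3 were higher and 3 lower in the one labelled Twist1+/- (0.0024). Osteoblast markers summed to 7478, 6694, 6178 and 9266 FPKM and osteoclast markers to 2590.0, 9094, 3234 and 6668. Bglap made up most of each osteoblast sum (6811, 5220, 5371 and 7982 FPKM). The median log2 ratio of the osteoblast list was 0.57 between the wild-type bones, 0.16 between the frontal and -0.04 between the parietal libraries. In each of these comparisons its sign was opposite to the change of the sum. Skeletal muscle markers summed to 104, 3109, 1260 and 1601 FPKM, with 8 of 8 past 3-fold higher in the Twist1+/- frontal library (2.86% of all genes). Brain and meninges markers summed to 2262, 101, 648 and 749 FPKM, of which Ptgds made up 1975, 52.8, 327 and 428. Between the frontal libraries 2 of 6 were higher and 4 lower in Twist1+/- (median -0.56, 55.4% of all genes lower). Past 3-fold, 6 of 6 were lower in wild-type parietal than in wild-type frontal bone (8.93% of all genes). In the labelled Twist1+/- parietal library 5 of 6 were past 3-fold higher than in wild-type parietal (4.88% of all genes). No marker of any of these lists was at 0 in any library. The part of these cell types in the erythroid differences was not tested.

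**Figure D5:**
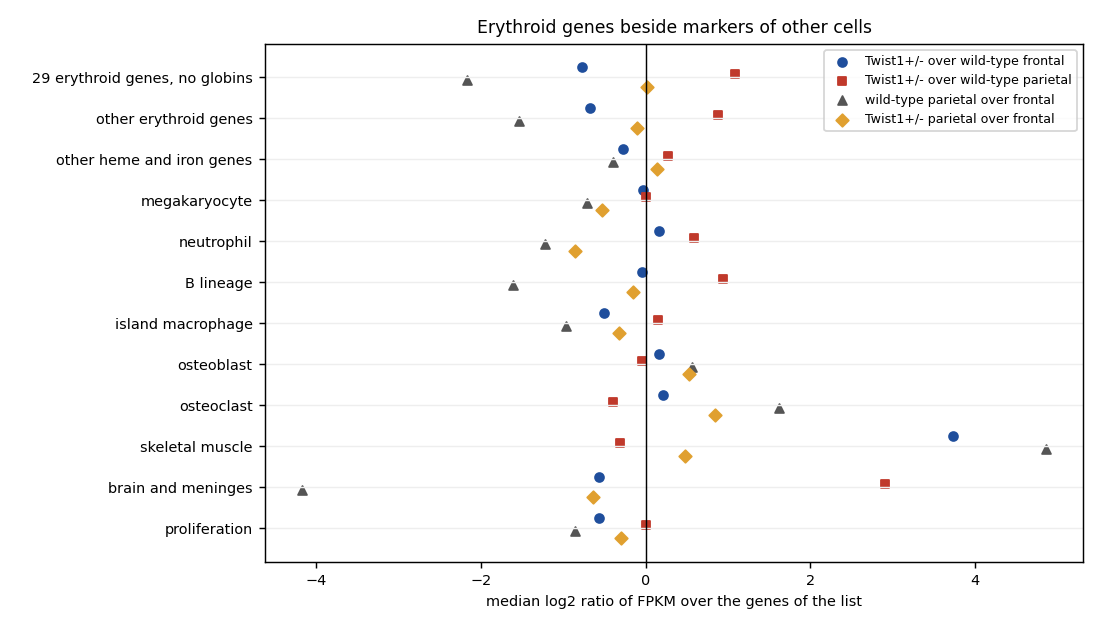
Median log2 ratio of FPKM (x axis) over the genes of each list (y axis) in the 4 comparisons, 1 symbol per comparison. The 29 erythroid genes lie at -0.78 (frontal libraries), 1.08 (parietal libraries), -2.17 (wild-type bones) and 0.02 (Twist1+/- bones). The muscle and the brain and meninges lists have the widest ranges.

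GC content moved with the parietal comparison. Across all genes the log2 ratio of labelled Twist1+/- over wild-type parietal had a Spearman correlation of 0.546 with the GC content of the transcript, and across 31 erythroid genes 0.502. It was 0.416 for the Twist1+/- bones, 0.11 for the frontal libraries and -0.134 for the wild-type bones, all across genes. With the median ratio of genes of like GC content subtracted, the medians of the erythroid genes were 0.88 between the parietal libraries, -0.75 between the frontal libraries, -2.04 between the wild-type bones and 0.03 between the Twist1+/- bones.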

How the data were processed

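Bulk RNA of 4 calvarial bone libraries, 1 for each genotype and bone, was measured after poly(A) capture with a stranded kit and single-end reads of 75 bases. Per the submitters' processing notes the tools were STAR 2.4.2a, Cuffdiff and Cufflinks 2.2.1 with mm9, and the study's methods name iGenomes for the annotation. The authors deposited FPKM, 1 value per gene and library, and nothing was rescaled here before use. FPKM does not give the depth of a library, so no interval or detection limit is given. Among genes between 0.005 and 0.1 FPKM, where values gather at that of single reads, 1 read was worth 1.30 times as much in Twist1+/- frontal as in wild-type frontal, 1.31 times as much in wild-type parietal as in Twist1+/- frontal, and 0.986 times as much in labelled Twist1+/- parietal as in wild-type parietal. The summed FPKM of a library ranged from 496064 to 701440.

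The members and all gene lists were chosen with earlier results of these data known. Every member was to be named with its values, besides Twist1, the bone markers Bglap, Sp7 and Ibsp, and up to 4 genes per comparison of the other erythroid and heme or iron lists, by size of the log2(FPKM + 1) difference among those past 3-fold. Log2 ratios of FPKM were formed for genes above 0 in both libraries and at 1 FPKM or more in the higher, in Python 3.11.15 with pandas 2.3.3. A gene counted as past the threshold at more than 3-fold, and the code was tested on simulated data. Alternatives were an added 1 or 0.1 FPKM, no floor or 10 FPKM, a 2-fold threshold, values at 0 counted, 3 other scalings, leaving out globins or Epb42, and a correction for GC content or length, for which the median ratio within each of 20 groups of genes was subtracted. GC content, length and positions came from GENCODE M1 for mm9, which is not the annotation of the authors, and promoters from RefSeq (GRCm38.p6). Hbb-b2 and Ahsp are not analysed here. Of the genes named by this rule, 1 is not reported here.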

Additional observations from a re-analysis of the deposited data

Results flagged for a closer look

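The following results lay on opposite sides of 0 in the frontal and the parietal bone when Twist1+/- was compared with wild type. With 1 library per group these differences were not tested, and the direction in the parietal bone rests on the label of a library whose Twist1 level was close to wild type. The median log2 ratio of the 29 erythroid genes other than globins was 1.86 higher in parietal (1.08) than in frontal bone (-0.78). For single genes the parietal ratio exceeded the frontal ratio by 3.47 for Klf1, 2.72 for Gata1, 2.38 for Epor and 2.04 for Nfe2, again on the log2 scale.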

How the results depend on the processing

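No paired analysis was possible because each group has 1 library and no result comes from a test. The count of genes past 3-fold between the frontal libraries, 0, became 1 with no floor, 4 with values at 0 counted and 5 at 2-fold. Between the parietal libraries the count of 4 became 2 with 1 FPKM added, 13 with the same Gapdh value, 9 with the same sum without globins, Col1a1 and Col1a2, 15 at 2-fold and 2 with the length trend subtracted, an alternative chosen after seeing the data. Between the Twist1+/- bones the count of 1 became 0 without globins and also with the GC or length trend subtracted, where Hbb-bs has no value, and the median log2 ratio of 0.07 became -0.23 with the same sum and -0.038 with the length trend subtracted. Between the wild-type bones the count of 18 ranged from 17 to 22. With values at 0 counted, the 22 are 18 genes lower and the 4 adult globins higher in parietal bone. The medians ranged from -0.88 to -0.74 (frontal), 0.88 to 1.33 (parietal) and -2.61 to -2.03 (wild-type bones). Scaling to Gapdh subtracted 0.10, -0.39 and 0.44 from all log2 ratios in these comparisons. Scaling to the sum subtracted -0.03, -0.11 and 0.38, and 0.30 between the Twist1+/- bones. Of 860 alternatives for single genes, 786 kept their sign and their side of 3-fold and 74 did not. The cause of the other changes was not tested. The study gives only an average read number, so the depth of each library is unknown, which leaves low values without an error.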
